A study of Rattus norvegicus with 10 samples.

Results

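Among the genes that the authors' table of lung expression lists, 7 are chemokines or interleukin receptors: the chemokine genes Cxcl1, Cxcl2, Cxcl13 and Ccl11 and the receptor genes Il6r, Il9r and Il17rb. They were taken by name, as every row whose symbol starts with Cxcl, Ccl, Cxcr, Ccr or Ackr or with Il and a digit, from the 1319 genes of the table, all of which carry an unadjusted p-value under 0.05 for the same comparison in it. The table holds 5 lung libraries of wild-type rats (WT) and 5 of rats lacking Cmg2 (Cmg2-KO), all from Sprague Dawley animals aged 8 weeks. Cmg2, also named Antxr2, encodes a cell-surface receptor for matrix proteins and anthrax toxin, and the labels name the knockout only as Cmg2-KO, without its allele. Genes outside the table are not analysed here, and the build of the table's coordinates is not given in the sources used here. Values are scaled counts, reads per gene divided by 1 factor per library.

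Chemokines are small secreted proteins that direct the migration of leukocytes by binding receptors coupled to inhibitory G proteins, and they are named after the spacing of their first cysteines. The IL-6 and IL-9 receptors belong to the cytokine receptors that act through JAK kinases and STAT factors, while the IL-17 receptors form a family of their own that feeds into NF-kB. In lung, epithelium, fibroblasts, endothelium and macrophages all release chemokines, and Cxcl1 and Cxcl2 are textbook targets of NF-kB.

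The upstream sequences of Cxcl1, Cxcl2 and Cxcl13 are shown because the first pair are adjoining genes with higher means in Cmg2-KO, and the last, on the same chromosome, has a lower one. They are the 250 bases before each annotated start, 5′ to 3′, from RefSeq's annotation of the rat assembly GRCr8, in lower case with matches to the NF-kB consensus on either strand in capitals. All 3 lie on the minus strand, at chr14:17479322-17479571 for Cxcl1, chr14:17467256-17467505 for Cxcl2 and chr14:13917921-13918170 for Cxcl13.
Cxcl1: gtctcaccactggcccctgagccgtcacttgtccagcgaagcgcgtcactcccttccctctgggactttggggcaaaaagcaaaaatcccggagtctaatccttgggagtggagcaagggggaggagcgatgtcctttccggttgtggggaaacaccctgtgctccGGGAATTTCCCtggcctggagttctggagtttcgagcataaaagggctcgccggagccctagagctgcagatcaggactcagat
Cxcl2: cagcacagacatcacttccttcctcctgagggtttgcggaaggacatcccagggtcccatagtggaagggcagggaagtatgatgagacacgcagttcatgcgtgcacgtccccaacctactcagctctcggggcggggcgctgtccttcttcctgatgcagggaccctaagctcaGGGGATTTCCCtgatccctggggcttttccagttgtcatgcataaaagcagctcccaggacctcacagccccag
Cxcl13: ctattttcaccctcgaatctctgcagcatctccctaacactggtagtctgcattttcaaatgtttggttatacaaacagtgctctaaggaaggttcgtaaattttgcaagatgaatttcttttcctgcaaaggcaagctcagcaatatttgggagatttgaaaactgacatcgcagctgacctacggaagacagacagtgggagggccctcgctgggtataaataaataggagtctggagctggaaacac

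RefSeq gave an upstream sequence for 6 of the 7 genes, and 2 of the 6, Cxcl1 and Cxcl2, held an NF-kB match, against 3.54% of 33469 rat promoters of the same length. Each gene had a single stretch, covered by overlapping matches on both strands, that began 84 bases before the start in Cxcl1 and 74 bases before it in Cxcl2. None of the 6 held the STAT motif TTCNNNGAA (7.67% of all promoters), the AP-1 motif TGANTCA (6.34%) or the interferon-stimulated response element (3.41%), each read on both strands. A match describes letters in this window and not a bound site.

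The 7 genes split by direction. Cxcl1 and Cxcl2, which attract neutrophils through CXCR2, had higher means in Cmg2-KO lung, by 1.34-fold and 1.83-fold. Ccl11, the eosinophil attractant eotaxin, and Cxcl13, the B cell attractant that binds CXCR5, had lower means, at 0.536 and 0.549 of WT. The 3 receptors also had lower means, at 0.743 of WT for Il6r, 0.675 for Il9r and 0.624 for Il17rb. Ccl11 alone passed an adjusted threshold of 0.05, in the authors' deposited table (adjusted p = 0.00653), where 5.46% of listed genes pass. None of the 7 passed it in limma, which passed 0.229% of the 1308 genes fitted. In the bulk tissue, fewer cells of a type and less RNA per cell cannot be told apart.

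These counts were read against the rest of the table, since every listed gene was selected on this contrast. Of the 7 genes, 5 were lower, while 51.8% of the 1308 fitted genes were, and their median log2 fold change was -0.56 beside -0.15. An unadjusted limma p under 0.05 was reached by 4 of the 7 (Ccl11, Il9r, Cxcl1 and Il6r), against 79.1% of fitted genes. In no gene of the 7 did the groups stand apart, with every library of one genotype beyond every library of the other, while they did in 16.4% of fitted genes. RefSeq annotates 136 rat genes whose names meet the rule. The listed share of these was 5.15%, and the table as a whole holds 6.63% of the 19894 genes behind the authors' adjustment, a different denominator. By class, 3 of 12 Cxcl genes, 1 of 20 Ccl genes, 0 of 22 chemokine receptor genes and 3 of 82 interleukin-named genes were listed.

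**Figure D1:**
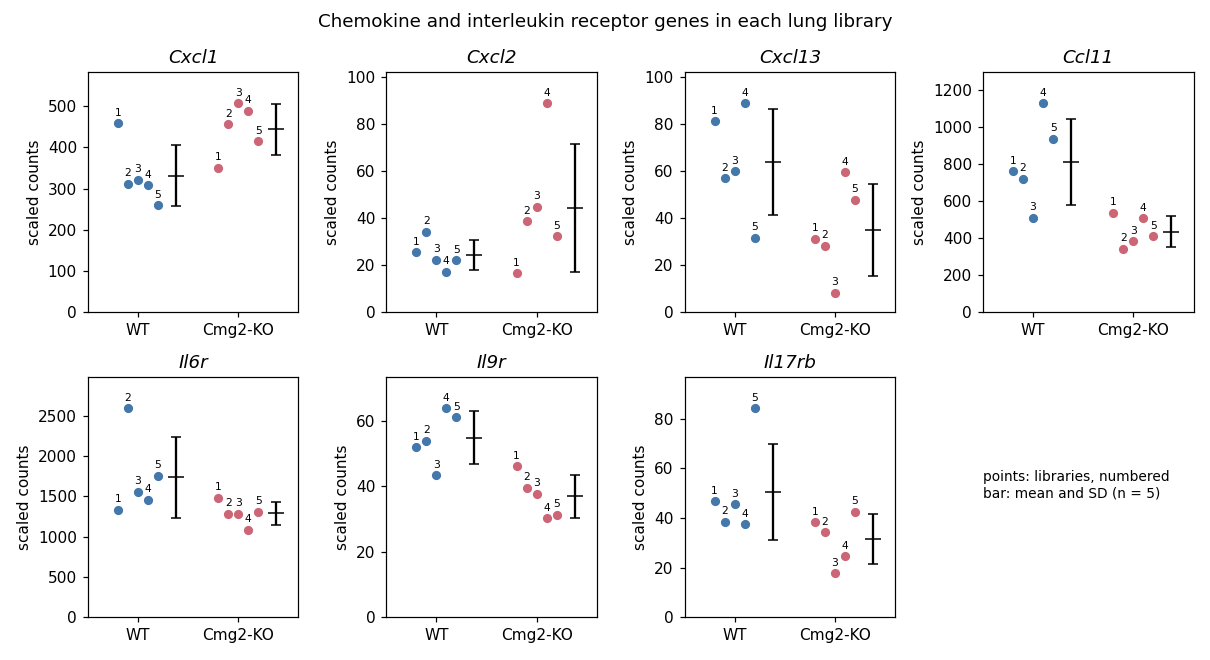
Scaled counts (vertical axes, starting at 0) of the 7 genes in each library, WT left and Cmg2-KO right, with points numbered by replicate and bars for mean and SD (n = 5). The genotypes overlap in all 7 panels, with Cmg2-KO 3 lowest for Cxcl13 at 8.35 and Cmg2-KO 4 highest for Cxcl2 at 88.9.

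Ccl11 (ENSRNOG00000007335) on chromosome 10 (69434941 to 69439575, plus strand), gave 762, 719.8, 509, 1129.5 and 937 scaled counts in WT 1 to 5. Its values in Cmg2-KO 1 to 5 were 535, 342, 382, 508 and 409.6. In Cmg2-KO, 4 libraries lay below every WT library, and the exception, Cmg2-KO 1, exceeded WT 3 alone. WT averaged 812 ± 234 and Cmg2-KO 435 ± 82.9 (SD, n = 5). The log2 fold change was -0.87 ± 0.20 (SE; limma, unadjusted p = 0.00145, adjusted p = 0.533). Leaving out 1 library at a time kept the log2 fold change between -1.02 and -0.74. It stood at position 26 by p-value in the authors' deposited table. The adjusted p in DESeq2 on whole reads of 9 libraries was 0.0733, with a log2 fold change of -0.75. WT 4, which holds the highest Ccl11 value, is not among the 9, and limma without WT 4 gave -0.74. Ccl11 acts through CCR3, and no gene of the chemokine receptor class was listed. None of the 14 mast cell, basophil and eosinophil markers on the list used here was listed either. Outside that list, and chosen after their values were seen, Rnase2, an eosinophil ribonuclease gene, had a log2 fold change of -1.34 ± 0.55 and Ptgdr2, a prostaglandin receptor gene of eosinophils, 0.52 ± 0.17 (SE), neither passing limma's adjusted threshold.

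Cxcl1 (ENSRNOG00000002802), on chromosome 14 (18743685 to 18745457, minus strand), gave 459, 311, 321, 308 and 259.8 scaled counts in WT 1 to 5 and 351, 456, 508, 489.7 and 415 in Cmg2-KO 1 to 5. WT 1 stood within the Cmg2-KO range and the other 4 WT libraries below it. The means were 332 ± 75.0 and 444 ± 62.7 (SD, n = 5). The log2 fold change was 0.43 ± 0.15 (SE; limma, unadjusted p = 0.0160, adjusted p = 0.790).

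Cxcl2 (ENSRNOG00000002792), whose nearest edge is 10.3 kb from Cxcl1 (18731378 to 18733391, minus strand), was read at a lower level. It gave 25.4, 34.2, 22.2, 17.2 and 22.1 scaled counts in WT 1 to 5 and 16.5, 38.7, 44.9, 88.9 and 32.2 in Cmg2-KO 1 to 5. A total of 3 Cmg2-KO libraries exceeded all of WT, while Cmg2-KO 1 was the lowest library of all. The log2 fold change was 0.68 ± 0.39 (SE; limma, unadjusted p = 0.108, adjusted p = 1), and 0.38 without Cmg2-KO 4. Cmg2-KO 4 rested on 94 reads and Cmg2-KO 1 on 19, and their 95% Poisson intervals, 71.8 to 108.7 and 9.94 to 25.8 scaled counts, cover counting error only.

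The pair varied together in part. After each genotype's mean log2 value was removed, Cxcl1 and Cxcl2 had a Pearson r of 0.526 and a Spearman rho of 0.721 across the 10 libraries, with exact permutation p-values within genotype of 0.0817 and 0.0342. Over the 21 pairs among the 7 genes the Benjamini-Hochberg adjusted values were 0.537 and 0.436, and no pair passed 0.05. Without WT 1 and WT 5, the libraries farthest from the median of Cxcl1, r was 0.793. The ratio of Cxcl1 to Cxcl2 scaled counts spanned 9.09 to 18.1 over the WT libraries and 5.51 to 21.3 over the Cmg2-KO ones. The genes are close paralogs, so reads that fit both could be assigned to either or to neither.

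**Figure D2:**
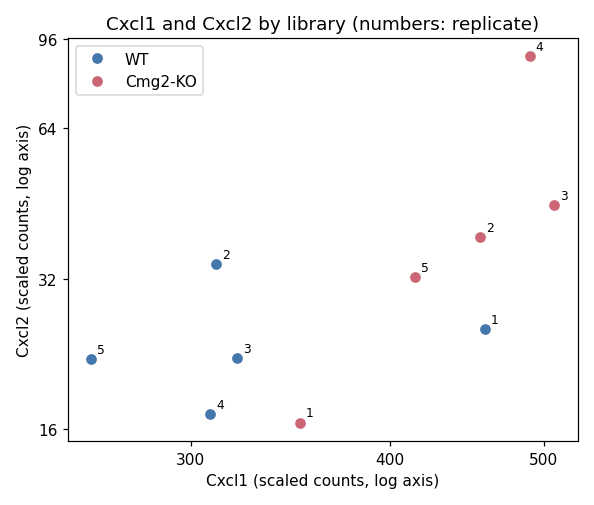
Cxcl1 (horizontal) against Cxcl2 (vertical) in scaled counts, both on log axes, 1 point per library numbered by replicate and coloured by genotype. Cmg2-KO 2 to 5 lie to the upper right of WT 3, 4 and 5, while Cmg2-KO 1, at 351 and 16.5, lies below all WT libraries on the vertical axis and within their range on the horizontal one.

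Cxcl13 (ENSRNOG00000024899), on chromosome 14 (15253125 to 15258207, minus strand), gave 81.3, 57.0, 59.9, 89.0 and 31.6 scaled counts in WT 1 to 5. It gave 31.3, 28.1, 8.35, 59.6 and 47.8 in Cmg2-KO 1 to 5. A total of 3 Cmg2-KO libraries lay below all of WT, and the remaining Cmg2-KO libraries, 4 and 5, lay above WT 5. The means were 63.8 ± 22.6 and 35.0 ± 19.6 (SD, n = 5), and the log2 fold change of -1.01 ± 0.48 (SE; limma, unadjusted p = 0.0619, adjusted p = 1) had a 95% interval from -2.07 to 0.06. An exact two-sided permutation test of the 10 libraries gave p = 0.0714. Cmg2-KO 3 weighs heavily on this value, since the log2 fold change was -0.58 without it. That library held 8 reads of Cxcl13 (95% Poisson interval 3.61 to 16.5 scaled counts). In Cmg2-KO the spread between libraries, with a coefficient of variation of 56.0%, exceeded the 16.4% that counting alone gives.

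Cxcl13 is also a chromosomal neighbour of the targeted gene: in RefSeq's order for GRCr8, 9 protein-coding genes stand between Antxr2 and Cxcl13. Antxr2 was not analysed here, so the genotype has no check from its own transcript. Within 5 Mb of Cxcl13, by the coordinates of the authors' table, 10 other genes were listed, 7 higher and 3 lower, and none passed an adjusted threshold in the authors' deposited table. Their median absolute log2 fold change was 0.26 beside 0.47 over all fitted genes. The nearest, an unnamed model 194 kb away (15058610 to 15059273, minus strand), averaged 143 ± 25.2 (WT) and 115 ± 7.58 (Cmg2-KO), and its log2 fold change was -0.30 ± 0.14. Shroom3, an actin-binding regulator of cell shape 1.36 Mb away, had a log2 fold change of 0.22 ± 0.10. Stbd1, a glycogen-binding protein, had 0.33 ± 0.14 and Scarb2, a lysosomal membrane receptor, -0.23 ± 0.06. Sec31a and Coq2 lie on the other side of Cxcl13 from Shroom3, Stbd1 and Scarb2, as does the unnamed model. Sec31a, a coat protein of vesicles leaving the endoplasmic reticulum, had 0.11 ± 0.05 and Coq2, an enzyme of coenzyme Q synthesis, 0.14 ± 0.06. Cxcl2 and Cxcl1 lie 3.47 and 3.49 Mb away, and LOC360919, 3.77 Mb away, was at 6.68 ± 7.36 and 1.55 ± 0.95. The tenth gene has a symbol written as a date.

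**Figure D3:**
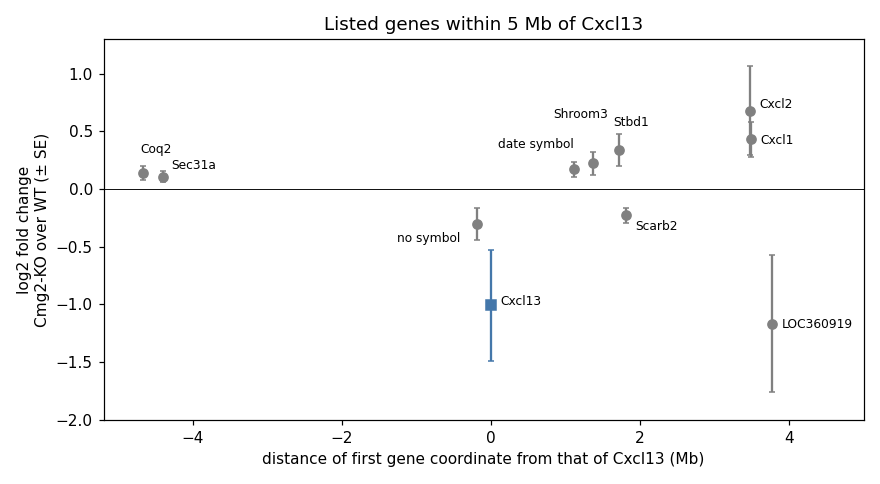
Log2 fold change (Cmg2-KO over WT, bars are SE) of the genes listed within 5 Mb of Cxcl13, against the distance of their first coordinate from that of Cxcl13 in Mb. Cxcl13 (square, -1.01) stands beside neighbours of both directions, most of them within 0.5 of 0.

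Among the 987 other fitted genes with a regular symbol, those most like Cxcl13 once genotype means were removed were Aldh1l1 (Pearson r = 0.951), Thbs1 (0.882), Bmpr1b (0.881), Slc45a4 (0.873) and Mall (0.854), over 10 libraries. These correlations describe shared ups and downs of the libraries and carry no p-value. Their own differences between genotypes went both ways. Log2 fold changes were -0.35 for Aldh1l1, a folate enzyme, 0.47 for Thbs1, which encodes the matrix glycoprotein thrombospondin, and -0.81 for Bmpr1b, a bone morphogenetic protein receptor. Slc45a4 had 0.24 and Mall -1.35.

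Il6r, the ligand-binding subunit of the IL-6 receptor (ENSRNOG00000020811), on chromosome 2 (189205701 to 189254628, minus strand), had the most reads of the 7. It gave 1331, 2589, 1554, 1453 and 1755 scaled counts in WT 1 to 5 and 1483, 1285, 1286, 1084 and 1312 in Cmg2-KO 1 to 5. In Cmg2-KO, 4 libraries lay below every WT library, and WT 2 stood far above the rest of its group. The log2 fold change was -0.39 ± 0.16 (SE; limma, unadjusted p = 0.0347, adjusted p = 0.874) and -0.24 without WT 2. RefSeq's GRCr8 model of Il6r overlaps that of She, and without strand in the counting, which the sources used here do not state, reads of the overlap could go to either or neither. Counting error was small, at 2.41% in WT beside a coefficient of variation of 28.9%.

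Il9r, the subunit that binds IL-9, a growth factor for mast cells and T cells (ENSRNOG00000020630), lies on chromosome 10 (15696824 to 15710423, plus strand). It gave 51.8, 53.9, 43.3, 63.7 and 61.0 scaled counts in WT 1 to 5 and 46.1, 39.5, 37.6, 30.2 and 31.2 in Cmg2-KO 1 to 5. Cmg2-KO 1 alone reached the WT range, above WT 3. The log2 fold change was -0.56 ± 0.19 (SE; limma, unadjusted p = 0.0119, adjusted p = 0.781) and stayed between -0.64 and -0.49 without any 1 library. Under quantile normalization it was -0.37. The coefficients of variation, 14.7% in WT and 17.6% in Cmg2-KO, lay near the 14.1% and 15.97% that counting alone gives.

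Il17rb, a subunit of the receptor for the type 2 cytokine IL-25 (ENSRNOG00000015498), lies on chromosome 16 (6064288 to 6077978, minus strand). It gave 46.7, 38.4, 45.5, 37.4 and 84.1 scaled counts in WT 1 to 5 and 38.2, 34.3, 17.8, 24.6 and 42.6 in Cmg2-KO 1 to 5. WT 5 stood apart on the high side, and 3 Cmg2-KO libraries lay below all of WT. The log2 fold change was -0.66 ± 0.30 (SE; limma, unadjusted p = 0.0506, adjusted p = 0.964) and -0.46 without WT 5.

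Chdh, the choline dehydrogenase gene, starts 144 bases from Il17rb on the opposite strand (6078122 to 6109382), and it was listed too. Its scaled counts were 85.3, 161, 111, 120.3 and 191 in WT 1 to 5 and 92.1, 89.6, 96.1, 82.2 and 92.5 in Cmg2-KO 1 to 5. WT 5 was again the highest library, and WT 1 fell within the Cmg2-KO range. Chdh fitted at -0.50 ± 0.20 on the log2 scale (SE), with an adjusted limma p of 0.861. RefSeq's GRCr8 models of Chdh and Actr8 each overlap that of Il17rb, and the sources used here do not say whether counting used strand, so reads of these genes may not be separable. Cacna1d, a calcium channel gene 34.2 kb from Il17rb, had a log2 fold change of 0.43 ± 0.18.

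**Figure D4:**
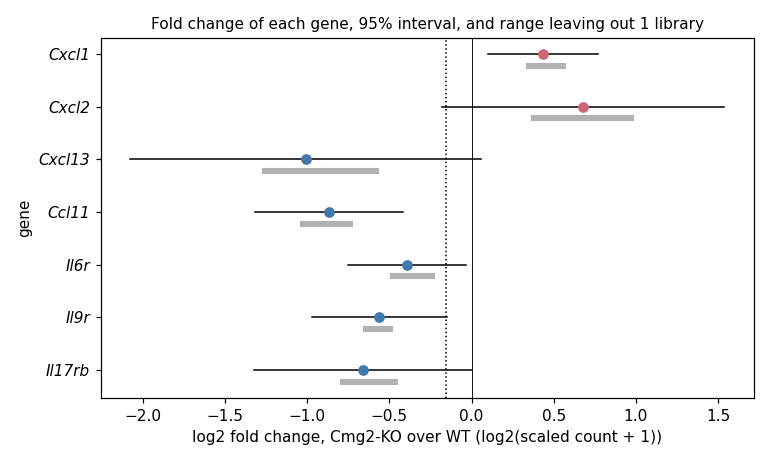
Log2 fold change (Cmg2-KO over WT) of the 7 genes, with 95% limma intervals (black lines) and the range over fits that leave out 1 library (grey bars); the dotted line is the median of all fitted genes, -0.15. The intervals of Cxcl2, Cxcl13 and Il17rb include 0, and no grey bar crosses it.

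Levels were compared between genes as scaled counts per kb of the authors' gene length. In WT, Ccl11 was highest at 803 ± 231 per kb, followed by Il6r at 378 ± 109 and Cxcl1 at 358 ± 81.0 (SD, n = 5), and the last pair did not differ beyond their spread. Cxcl13 came next at 56.0 ± 19.8, then Cxcl2 at 22.6 ± 5.89, Il17rb at 16.3 ± 6.24 and Il9r at 8.90 ± 1.31. The SD ranges of Cxcl2 and Il17rb, and of Il17rb and Il9r, overlapped. In Cmg2-KO, Cxcl1 at 479 ± 67.8 per kb and Ccl11 at 431 ± 82.0 stood in the other order, within their spread, and Il6r followed at 281 ± 30.8. Cxcl2 at 41.3 ± 25.3 and Cxcl13 at 30.8 ± 17.2 also stood in the other order and overlapped. Il17rb was at 10.2 ± 3.29 and Il9r at 6.002 ± 1.05.

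Other genes of the pathways were listed at a share near that of all genes. Of 153 genes on 6 lists of cytokine and chemokine signalling, 8 were listed, or 5.23%, beside the 6.63% of all genes behind the authors' adjustment. Of the 8, 6 had higher means and 2 lower, with none passing an adjusted threshold in limma or the authors' deposited table, and with a median log2 fold change of 0.27. From a list of 30 chemokine receptor signalling genes, some of them ligands or receptors, 1 was listed. That gene, Rgs16, shortens G protein signalling, and it averaged 144 ± 63.4 (WT) and 68.4 ± 18.7 (Cmg2-KO). Of 23 JAK-STAT and SOCS genes, 1 was listed, the kinase gene Jak2, with a log2 fold change of 0.15 ± 0.05 (SE). Of 29 IL-1 and NF-kB signalling genes, 1 was listed, Relb, a subunit of the NF-kB family, at 285 ± 43.5 and 343 ± 38.6. Of 18 interferon-induced genes, the antiviral gene Rsad2 was listed, with a log2 fold change of 0.34 ± 0.18. None of 22 lymphotoxin, BAFF and lymphoid tissue genes was listed, among them the lymphotoxins that induce Cxcl13 in lymphoid organs.

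Among other leukocyte cytokines and their receptors, 4 of 31 were listed, 3 higher and 1 lower. Csf2, which encodes the macrophage growth factor GM-CSF, gave 54.9, 61.2, 63.3, 66.7 and 61.0 scaled counts in WT 1 to 5 and 98.2, 83.5, 99.2, 69.0 and 69.7 in Cmg2-KO 1 to 5. Every Cmg2-KO library exceeded every WT library. Csf2 fitted at 0.43 ± 0.15 on the log2 scale (SE), with an adjusted limma p of 0.802. Kitlg, the stem cell factor that sustains mast cells, had a log2 fold change of 0.29 ± 0.09, and the receptor gene Flt3 0.26 ± 0.12. Lifr, a receptor of the IL-6 cytokine group, averaged 6994 ± 639 and 5537 ± 633, with a log2 fold change of -0.34 ± 0.09.

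Markers of leukocytes and lung cells were read from 12 lists, and no listed marker passed an adjusted threshold in limma or the authors' deposited table. Of 19 B and plasma cell markers, 3 were listed (Jchain, Mzb1 and Xbp1), all with higher means, and their summed level spanned 5306 to 8782 scaled counts over WT libraries and 7419 to 11126 over Cmg2-KO ones. They had higher means where the B cell attractant Cxcl13 had a lower one, and their part in its values was not tested. Of 12 dendritic cell markers, 2 were listed (Flt3 and Itgae), both with higher means, summing to 388 to 467 over WT and 452 to 613 over Cmg2-KO libraries. None of the genes on the lists used here for neutrophils (12 genes), which Cxcl1 and Cxcl2 attract, macrophages (18) or natural killer cells (11) was listed. Other genes known from these cells were, such as the natural killer receptor gene Klrc2 (log2 fold change 1.04 ± 0.25, SE), the macrophage receptor gene Trem2 (1.23 ± 0.42) and the neutrophil granule gene Pglyrp1 (-0.50 ± 0.26). Natural killer receptor genes went both ways. Klre1 was also higher (1.55 ± 0.47), while Klra1 (-2.27 ± 0.48), Ly49s4 (-2.14 ± 0.58), Ly49i4 (-0.89 ± 0.39) and Klra2 (-0.34 ± 0.15) were lower. All of these genes were picked with their values in view, and none passed the adjusted limma threshold. By its place in the authors' order of p-values, Klrc2 is among the genes that pass 0.05 in their deposited table. Of 14 lung epithelial markers 3 were listed: the surfactant gene Sftpb (log2 fold change -0.24) and the club cell gene Scgb1a1 (-0.47) had lower means, and the transcription factor gene Nkx2-1 (0.22) a higher one. Their sum spanned 200199 to 244656 scaled counts over WT and 130088 to 222920 over Cmg2-KO libraries, and its part in the chemokine and receptor values was not tested. Scgb1a1 reached at least 84205 scaled counts in each library. Follicular dendritic and stromal organiser cells had 1 of 12 markers listed (Icam1, log2 fold change 0.24), lymphatic endothelium 1 of 7 (Flt4, 0.21) and endothelium 1 of 11 (Tie1, -0.24). Mesothelial markers had 6 of 10 listed, all with higher means, summing to 3166 to 5676 over WT and 3777 to 6966 over Cmg2-KO libraries, and their part in the chemokine values was not tested.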

How the data were processed

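RNA from flash-frozen lung was made into libraries with an NEBNext Ultra kit, per the labels' protocols, and the submitters' processing notes name HISAT2 2.0.5 and featureCounts 1.5.0-p3. Build, annotation and test tool: not given in the sources used here. The deposited signal is read counts divided by 1 size factor per library, as the values themselves show. Every value was a whole multiple of 1 read within 0.02 reads, and 1 read was worth 0.869 to 1.11 scaled counts. Beside these the authors deposited a log2 fold change, fold (ratio), p-value and adjusted p-value. The 1319 genes of the table all have p under 0.05. Reads in them numbered 1289524 to 1620198 in the 9 libraries where whole reads were used. Total depth is unknown.

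Cmg2-KO was compared with WT (5 libraries each) by limma 3.58.1 (trend, robust; R 4.3.3) after log2(scaled count + 1), over 1308 genes above 0.5 in at least 5 libraries, which include all 7 described. The added 1 shrinks the fold changes of low genes, and means of log values can also differ from ratios of means. For Cxcl13 the log2 fold change was -1.01 in limma and -0.86 in the authors' deposited table. Benjamini-Hochberg adjustment used 19894 genes, the number most often implied by the authors' p and adjusted p, unlisted genes counting as not passing. Tests on already selected genes are descriptive. Nothing says that libraries came from separate animals, so p-values measure the spread between libraries. The series text speaks of sextuplicate, and 5 libraries per genotype are analysed here. Alternatives covered pseudocount, filter, scaling, test, replicate block and each library left out, and, on whole reads, DESeq2 1.42.0, edgeR 4.0.16 and limma-voom. WT 4 stayed out of those: its values were whole multiples of 1.01 here, but a separate check of its low values did not recover that step. The limma step was tested on simulated data. Every gene meeting the rule was named, with genes of 18 lists found in the table, listed genes within 5 Mb of Cxcl13 and the 5 most like it. Neighbours of other genes, within 1 Mb, were added after their values were seen. Members and lists were chosen with earlier results of these data known. A plan assumed the table might hold counts, and the test for normalized values was used. The result of 1 marker list is not reported here.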

Additional observations from a re-analysis of the deposited data

Results flagged for a closer look

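Dixon's test was applied to the log2 values of each gene within each genotype, with a critical ratio of gap to range of 0.71 for 5 libraries. Of 14 such groups over the 7 genes it marked 1, and chance marks about 1 in 20. Il17rb in WT 5 stood at 84.1 scaled counts against 37.4 to 46.7 in the other WT libraries, a gap of 0.727 of the range. The same library was highest for the adjoining Chdh, at 191.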

How the results depend on the processing

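Of the 7 genes, 0 passed limma's adjusted threshold and 4 had an unadjusted limma p under 0.05. By the adjusted p of the authors' deposited table, 1 passed (Ccl11). No alternative of limma, edgeR or DESeq2 passed any of the 7, and the lowest adjusted p was 0.0733, for Ccl11 in DESeq2. Leaving out each library gave 0 throughout for the adjusted count and between 3 and 6 for the unadjusted one, and other settings gave 4 or 5. All 7 genes kept their direction in all 21 alternatives. For Cxcl13 the log2 fold change ran from -1.255 without Cmg2-KO 4 to -0.58 without Cmg2-KO 3, and from -1.025 to -0.71 under the other settings. The value of -0.71 came from edgeR and DESeq2 on the 9 libraries without WT 4, which holds the highest Cxcl13 value. Limma without WT 4 gave -0.87. The unadjusted limma p of Cxcl13 fell under 0.05 without WT 5, without Cmg2-KO 4 and without Cmg2-KO 5. With the replicate block the Cxcl13 log2 fold change was -1.01, and 0 of the 7 genes passed the adjusted threshold and 5 the unadjusted one. Same-numbered libraries had correlations of deviations between -0.0156 and 0.0873. Among the 5 libraries of the other genotype, 5 of 10 libraries correlated best with the one of their own number. A random pick among 5 would match 1 time in 5. The labels name no pairing, and whether same-numbered libraries share a batch was not tested. Over all fitted genes, the adjusted count was 3 in the main limma fit, 0 with the block, 1 in edgeR and limma-voom, 49 in DESeq2 and 5 with quantile normalization, and it ran from 1 to 6 with a library left out. No scaling moved the median of all genes by more than 0.1. Low counts limit Cxcl13, Cxcl2, Il9r and Il17rb, which rest on 8 to 94 reads in a library.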

Other observations

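With the rule used for Cxcl13 applied to Cxcl2 after its values were seen, the gene most like it among 987 was Mzb1, a plasma cell gene (Pearson r = 0.880 over 10 libraries, genotype means removed). Next came Chchd4 (r = 0.876) and Bace2 (r = 0.854), which are not on the B and plasma cell list. Cxcl2 and Mzb1 were both highest in Cmg2-KO 4, at 88.9 and 319.5 scaled counts. Jchain, also a plasma cell gene, was highest there at 6336. Xbp1, from the same marker list, was instead highest in Cmg2-KO 5, at 5111, beside 4470 in Cmg2-KO 4. For Il6r the most like was Fam117b (r = 0.923), followed by Fkbp1a (0.911), the surfactant gene Sftpb (0.885) and Srgn (0.883). Sftpb and Il6r were both highest in WT 2, at 65237 and 2589 scaled counts. The other listed lung epithelial markers peaked elsewhere, Scgb1a1 in WT 1 and Nkx2-1 in Cmg2-KO 3.

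Around Ccl11, 2 genes were listed within 1 Mb, both with lower means in Cmg2-KO. Asic2, an acid-sensing ion channel gene 917 kb away, averaged 12.1 ± 3.11 (WT) and 6.54 ± 1.84 (Cmg2-KO) scaled counts (SD, n = 5), and an unnamed model 872 kb away at 7.36 ± 3.73 and 1.85 ± 2.16. Rhbdf1, 11.5 kb from Il9r on the same strand, had a log2 fold change of 0.25 ± 0.10 (SE), against -0.56 for Il9r. The mesothelial marker Msln, 571 kb from Il9r on the opposite strand, had 0.63 ± 0.23.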
